A study of Mus musculus with 8 samples.

Results

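Cytosolic ribosomal proteins are the proteins of the 40S and 60S subunits of the ribosome that works outside mitochondria. Members were the genes with a probe set of exactly 1 gene symbol that reads Rpl or Rps followed by a number and at most an a, x or l, or that is Rplp0, Rplp1, Rplp2 or Rpsa. Where a gene had several such probe sets, the one with the highest mean signal over the 8 arrays stood for it. The rule found 46 genes among 18193 genes with a single-symbol probe set, 24 of the large subunit and 22 of the small subunit. A signal of 50 on at least 2 arrays was required for testing, and 43 members were among the 8886 genes tested. The 3 others were Rps16, Rpl3l and Rpl39l, whose mean signals lay between 0.743 and 12.9. Many ribosomal protein genes, such as Rplp1, Rpl5, Rpl23 and Rps27a, were not members because no single-symbol probe set names them.

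The arrays measured CMP, the common myeloid progenitors, and GMP, the granulocyte-monocyte progenitors derived from them, flow-sorted from the bone marrow of male mice of a mainly C576BL/6 background, as the labels spell it. The 2 genotypes were G0 TERTER/+, the normal group, and G4/G5 TERTER/ER, late generations with short, dysfunctional telomeres. TERTER is a knock-in allele of the telomerase reverse transcriptase gene that the G0 mice carry too, on 1 chromosome. No agent is named in the labels. Each of the 4 groups had 2 arrays, each from a pool of 4 mice matched for age and sex. The series text pairs the G0 and G4/G5 pools of the same number within each progenitor. A p-value therefore measures the spread between pools. The 8 values per gene were MAS5 signals, a linear microarray intensity that the authors scaled to a target of 100 per array.

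Every ribosome needs 1 copy of nearly all of these proteins, and cells keep their synthesis in step. Most of the mRNAs begin with a terminal oligopyrimidine (TOP) tract, a run of C and U at the cap through which mTOR signalling controls their translation. In blood formation the family is known for Diamond-Blackfan anaemia and the 5q- syndrome, human disorders in which loss of 1 copy of a ribosomal protein gene impairs red cell formation. Free Rpl11 and Rpl5, with 5S rRNA, bind Mdm2 and thereby stabilise p53, a pathway that short telomeres also engage.

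The sequences at the start sites of the genes describe the members outside the array. RefSeq (build GRCm38.p6) gave a start site for 40 of the 46 members. The windows below run from 15 bases before to 15 bases from that start, and capitals mark the longest run of C and T. They show, at the first listed start, members that fell in G4/G5 GMP against G4/G5 CMP (Rpl27a, Rpl37a, Rpl13a, Rps19, Rps7, Rpl35) and those that rose relative to the rest of the family (Rps27l, Rpl12, Rps25).
Rpl27a, chr7:109519180-109519209, plus strand: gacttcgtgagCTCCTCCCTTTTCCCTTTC
Rpl37a, chr1:72711245-72711274, plus strand: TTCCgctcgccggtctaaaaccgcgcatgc
Rpl13a, chr7:45128731-45128760, minus strand: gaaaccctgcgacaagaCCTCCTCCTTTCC
Rps19, chr7:24884577-24884606, plus strand: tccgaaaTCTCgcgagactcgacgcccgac
Rps7, chr12:28635939-28635968, minus strand: gCTTCCggtttccacccacctacttccgct
Rpl35, chr2:39005117-39005146, minus strand: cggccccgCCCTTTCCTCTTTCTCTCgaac
Rps27l, chr9:66946071-66946100, plus strand: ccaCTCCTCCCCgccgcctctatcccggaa
Rpl12, chr2:32961697-32961726, plus strand: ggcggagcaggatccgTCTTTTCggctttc
Rps25, chr9:44407699-44407728, plus strand: TTTTTCCgacatcttagcgaggctgctgtg
The runs of Rpl27a, Rpl13a and Rpl35 were 19, 13 and 18 bases long, and those of Rpl37a, Rps19 and Rps7 were 4, 4 and 5. Of the 13 members that fell, 10 have a start site in the table, and 3 of these 10 had a run of at least 8 while the other 7 had runs of 3 to 7. The runs were 9 in Rps27l, 7 in Rpl12 and 7 in Rps25, so run length did not separate the members shown. A run of at least 8 pyrimidines lay in this window in 17 of the 40 members (42.5%) and in 3205 of all 27025 genes of the table (11.9%), with the first listed start of each gene. Runs were counted anywhere in the window, also where they ended before the start, so their length does not tell whether a TOP tract is present. The first base from the listed start was C in 13 of 40 members (32.5%) and in 16.2% of all genes. The motif CCGGAAG, the core bound by ETS factors, was found on either strand within 300 bases around the start in 20 of 40 members (50%) and in 9.12% of all genes. AAGATGGC, the core of the YY1 site, was found in 2 of 40 members (5%) and in 2.88% of all genes. Both motifs, which can overlap by 3 bases, were found in 0 of 40 members and 0.433% of all genes. The reverse complement of CCGGAAG begins with pyrimidines of its own, so the pyrimidine run and this motif can overlap. These matches describe sequence and say nothing of what binds there.

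The 8 arrays had equal trimmed means, by the authors' scaling. The markers of granulocyte and monocyte progenitors (11 genes, such as Mpo and Elane) summed to between 34370 and 40180 on GMP arrays and between 7350 and 27461 on CMP arrays. The markers of CMP and the megakaryocyte and erythroid line (11 genes, 1 below 50 on all arrays) summed to between 2836 and 6319 on CMP arrays and between 774.9 and 1495 on GMP arrays. The surface markers Kit, Cd34 and Cd48 summed to between 3053 and 6138 on all arrays. Fcgr3, in the granulocyte and monocyte progenitor list, read 617.5 on G4/G5 CMP pool 1 and 38.7 to 83.9 on the other CMP arrays. G4/G5 CMP pool 1 stood apart, with a sum of 56578 for 11 markers of maturing neutrophils against 245.9 to 325.6 on the other CMP arrays. That sum was 1513 and 3386 for G0 GMP pools against 29696 and 32353 for G4/G5 GMP pools. Of the markers of B cells (4 genes), of T and NK cells (4) and of macrophages (5), 3 in each list were below 50 on all arrays. Of the rest, Cd79b read 107.0 to 182.5, Nkg7 704.1 to 1623, Adgre1 up to 89.8 and Vcam1 up to 83.8. In bulk samples like these, fewer cells of a type and less RNA per cell cannot be told apart.

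The member probe sets were among the brightest of the array. Of the 50 genes with the brightest probe sets, 32 were members, and 33 of the 111 genes with a mean signal of 4000 or more were members. These 33 had mean signals between 6418 and 13769. The other 10 tested members were dimmer, from Rps27l at 3903 down to Rpl39 at 51.9. The limits of 4000 and, below, 1000 were chosen after the values were seen. Brightness differs between probe sets for reasons other than transcript abundance and gives no order of transcript levels between genes.

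In CMP, ribosomal protein signals were higher in G4/G5 than in G0 for most of the family, but the 2 pools of a genotype also differed, and 0 members passed the test. The median member signal was 7250 and 9363 for the 2 G0 pools, against 10505 and 12165 for the 2 G4/G5 pools. Both G4/G5 pools lay above both G0 pools, but the step between the G0 pools was the largest step between neighbours. The members together made up 3.54% and 4.36% of the summed signal of the array in G0 and 4.59% and 5.25% in G4/G5. The fitted change was above 0 for 40 of 43 members, with a median of 0.42 on the log2(signal + 10) scale and a range of -0.50 to 0.61. The median over all genes tested was 0.04. With limma and Benjamini-Hochberg adjustment over all 8886 genes, no member passed (lowest adjusted p = 0.239). At an unadjusted p under 0.05, 33 members were higher and 1 was lower. Over all genes 1 of 8886 (0.0113%) passed the adjusted threshold, and 775 were higher and 419 lower at an unadjusted p under 0.05. The 2 G4/G5 pools did not overlap the 2 G0 pools in the upward direction for 36 of 43 members (83.7%), against 21.7% of all genes. In the downward direction that held for 1 member, against 14.9% of all genes. Within a genotype, pool 2 lay above pool 1 for 38 of 43 members in G0 (median log2 difference 0.32) and for 41 of 43 in G4/G5 (0.23). Without G0 CMP pool 2, 9 members passed, all higher, with a median of 0.58, and without G0 CMP pool 1 the median was 0.28 with none passing.

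Within each progenitor, the same array order appeared in RNA that does not come from the mice. Hybridisation controls are bacterial and phage RNAs (bioB, bioC, bioD and cre) that the manufacturer's protocol adds to each hybridisation, and 18 probe sets of the array detect them. Their median signal was 873.9 and 1167 for G0 CMP pools against 1563 and 2256 for G4/G5 CMP pools, the same order as the members. In GMP it was 667.3 and 655.0 for G0 pools against 753.3 and 760.9 for G4/G5 pools. In CMP all 18 control probe sets were higher on both G4/G5 arrays than on both G0 arrays, with a median log2 difference of 0.83 and a range of 0.67 to 0.96, so the controls differed by more than the members. The ratio of the 3' to the 5' probe set of beta-actin, which rises as labelled RNA gets shorter, was 2.12 and 2.81 for G0 CMP pools against 2.46 and 3.39 for G4/G5 CMP pools. It ran from 1.82 to 2.19 on the GMP arrays. The granulocyte and monocyte progenitor markers also differed between the CMP arrays, with sums of 7350 and 15312 in G0 pools and 27461 and 24039 in G4/G5 pools. Their order was not the same, with the highest sum in G4/G5 pool 1, whereas members and controls were highest in G4/G5 pool 2. The neutrophil markers were high in 1 of these pools, G4/G5 pool 1, and without it the family's CMP median was 0.53. The part of the controls and of the progenitor markers in the signals of the members was not tested.

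**Figure D1:**
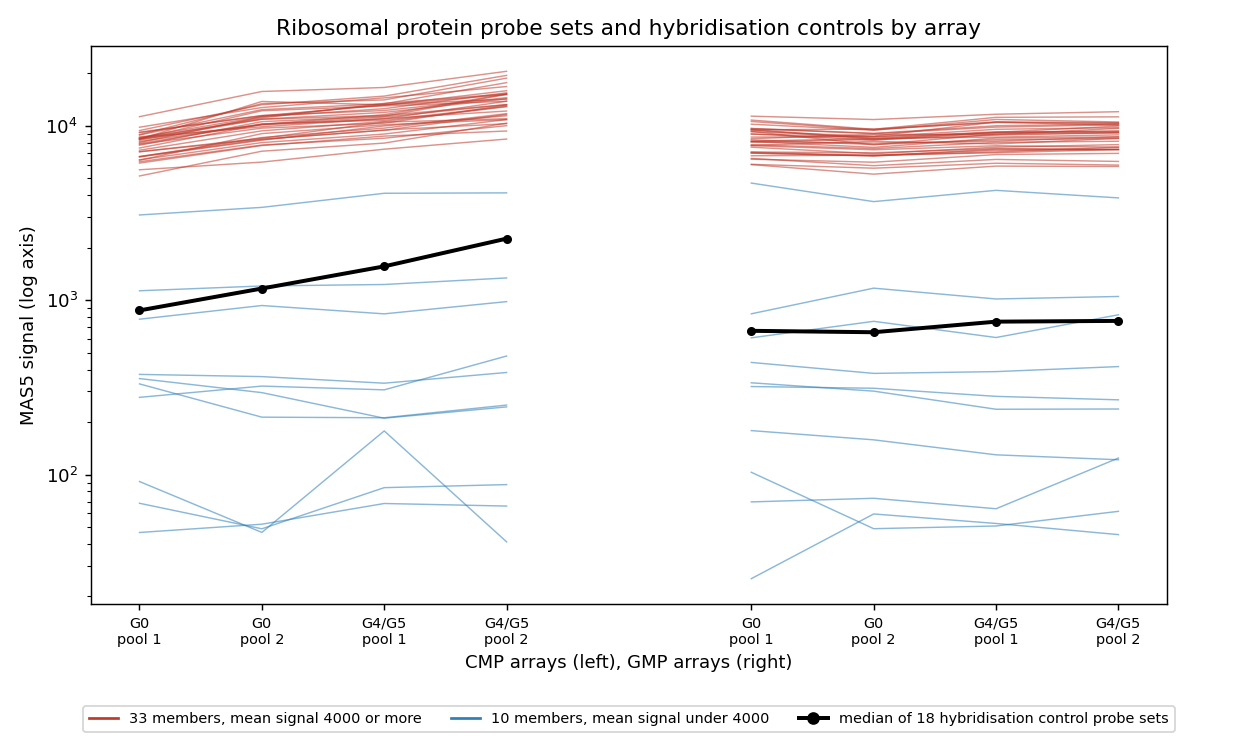
MAS5 signal (log axis) of the 43 tested members and the median of the 18 hybridisation control probe sets on each array, with CMP arrays on the left and GMP arrays on the right. Each thin line joins the values of 1 member and the black line joins the control medians, which lie between 873.9 and 2256 on the CMP arrays, in the same order as the member medians, and between 655.0 and 760.9 on the GMP arrays.

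The individual members showed how uniform the shift was. Of the stalk proteins, which recruit translation factors to the large subunit, Rplp0 read 8391 and 11107 for G0 CMP pools against 13459 and 15265 for G4/G5 CMP pools (log2 change 0.57 ± 0.14, SE, n = 2 pools per group; limma adjusted p = 0.250). Rplp2 read 8861 and 12393 against 13386 and 17700 (log2 change 0.55). The groups did not overlap for either gene. Rpl11, the Mdm2 binder, read 6681 and 8352 for G0 pools against 9462 and 10295 for G4/G5 pools (log2 change 0.40 ± 0.12).
Among the genes of Diamond-Blackfan anaemia and the 5q- syndrome, Rps19, the most often mutated in the former, had a log2 change of 0.53 ± 0.13 (limma adjusted p = 0.239). Rps14, the 5q- gene, read 7744 and 10577 for G0 pools against 11350 and 15143 for G4/G5 pools (log2 change 0.53 ± 0.17). Rps24, Rps7, Rps10 and Rps26 had log2 changes of 0.40, 0.37, 0.48 and 0.58. All 6 genes of this set had both G4/G5 pools above both G0 pools.
Rpsa, which is also known as a laminin receptor, had a log2 change of 0.50. Rps4x, the X-linked small subunit protein, had a change of 0.39, but its G0 pool 2 (13802) lay above G4/G5 pool 1 (13200), so its groups overlapped. Rpl22, which is not needed for translation in general and acts in lymphocyte development in mice, had a change of 0.42. The highest changes of the family were those of Rpl41 (0.61), which encodes one of the shortest proteins of the large subunit, Rpl38 (0.61) and Rps26 (0.58). The lowest were those of Rpl12 (-0.50 ± 0.15), Rpl14 (-0.20 ± 0.21) and Rps25 (-0.04 ± 0.14), large and small subunit proteins whose probe sets were among the dim ones. The median was 0.42 for the 22 large subunit members and 0.44 for the 21 small subunit members.

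The bright members moved alike, and the dim ones varied. All 33 members with a mean signal of 4000 or more had changes between 0.33 and 0.61, whereas the 5 members between 200 and 1000 had a median of -0.04, with 2 above 0. The 2 members between 1000 and 4000 had a median of 0.24, and the 3 between 50 and 200 a median of 0.38, with all 3 above 0. Other genes at 4000 or more, which were dimmer as a set, also moved up, but by less. Of the 78 genes at 4000 or more that are not members, 69 had a change above 0, with a median of 0.29. The median of the 33 members at 4000 or more was 0.47. The 753 other genes between 1000 and 4000 had a median of 0.05 and the 3662 between 200 and 1000 a median of 0.01. Fau, a fusion gene that encodes Rps30 and lies outside the rule, is one of the bright genes and read 5699 and 8096 for G0 pools against 9207 and 11110 for G4/G5 pools (log2 change 0.57 ± 0.17; limma adjusted p = 0.281). Probe sets that list a ribosomal protein gene among several symbols, which were not used for members, were higher as well. Of 100 such probe sets that reached the signal filter, 87 had a change above 0, with a median of 0.47.

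Several members have both bright and dim probe sets, which often differed in sign. All 69 probe sets of members with a mean signal of 1000 or more, from 35 genes, had a CMP change above 0 (median 0.44). Of 18 dimmer probe sets that reached the filter, from 16 genes, 8 were above 0 and 10 below (median -0.07). For Rpl41 the bright probe sets had a median change of 0.70 and the dim ones of -0.65. For Rps24 the values were 0.42 and -0.38, for Rps20 0.37 and -0.26, and for Rpl22 0.42 and -0.15. Rps3, a small subunit protein with a further role in DNA repair, had like values on bright and dim probe sets (0.50 and 0.47). For G4/G5 GMP against CMP, 68 of the 69 bright probe sets were below 0 (median -0.51). Of the 18 dim ones, 12 were above 0 and 6 below (median 0.10).

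Quantile normalization, which gives every array the same distribution of signals, brought the family's median to about 0. The CMP median of the family became 0.0050, with 22 of 43 members above 0, and the 33 bright members lay between -0.14 and 0.17. The 78 other bright genes had a median of 0.00062. The method sets the brightest values of all arrays equal, and 32 of the 50 genes with the brightest probe sets are members, so a shared shift of the family is removed by its construction whether or not it was in the cells. Centring each array on the median of all genes, which moves all genes of an array alike, left the median at 0.37. A shift of the bright probe sets of an array and a change of the family therefore cannot be told apart here. Under quantile normalization the dim members kept nearly the values they had before, such as Rpl12 (-0.51) and Rps4l (0.54).

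**Figure D2:**
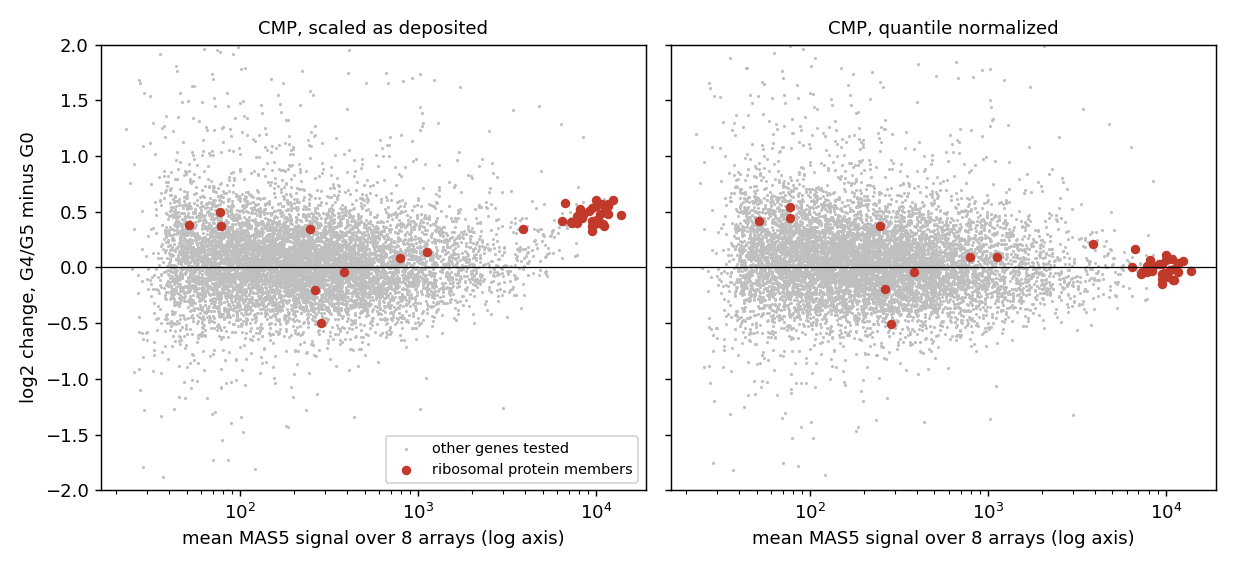
Log2 change in CMP (G4/G5 minus G0) against the mean MAS5 signal over 8 arrays (log axis) for the 8886 genes tested, scaled as deposited (left) and quantile normalized (right), with members in red. The 33 bright members lie between 0.33 and 0.61 on the left and between -0.14 and 0.17 on the right; 38 genes lie beyond the plotted range of 2 in either direction.

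In GMP the genotypes differed less. The median member signal was 7727 and 7410 for G0 pools against 7877 and 8161 for G4/G5 pools, and the summed share ran from 3.48% to 3.75% on the 4 arrays. The median log2 change was 0.09, with 37 of 43 members above 0 and a range of -0.41 to 0.29. By limma 0 members passed the adjusted threshold and 0 passed at an unadjusted p under 0.05, and of all genes 0.0% passed the adjusted threshold. At that unadjusted p, 409 of all genes were higher and 290 lower. The hybridisation controls were also slightly higher in G4/G5 GMP (median log2 difference 0.18). The groups did not overlap upward for 23 of 43 members (53.5%), against 28.8% of all genes, and downward for 3 members (6.98%), against 26.5%. The highest changes were those of Rps4l (0.29), a mouse relative of Rps4x, Rpl39 (0.25), which lines the exit tunnel, and Rplp0 (0.20). Rps4l and Rpl39 changed sign when 1 array was left out (ranges -0.14 to 0.72 and -0.24 to 0.73). Rplp0 read 9263 and 8733 for G0 pools against 10517 and 10088 for G4/G5 pools, with no overlap. Rpl14 read 335.9 and 300.9 for G0 pools against 236.9 and 237.6 for G4/G5 pools, again with no overlap, and had the lowest change (-0.41 ± 0.21; limma adjusted p = 0.638). The next lowest were Rpl27a (-0.39) and Rps27 (-0.31), which changed sign without G0 GMP pool 1.

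The mean of both progenitors and the difference between them gave no member past the threshold. For the mean, the family's median was 0.26, with 39 of 43 members above 0. At an unadjusted p under 0.05, 29 members were higher and 1 lower, beside 991 and 591 of all 8886 genes. Past the adjusted limma threshold were 0.0338% of all genes. Rps4l (0.39), Rplp0 (0.38) and Rpl38 (0.38) were highest, and Rpl12 (-0.35), Rpl14 (-0.30) and Rps25 (-0.03) lowest. Without G0 CMP pool 2, 7 members passed.
For the interaction, in which the difference between genotypes in CMP is taken from that in GMP, 41 of 43 members were below 0 with a median of -0.37. By limma 0 members passed and 4 were lower at an unadjusted p under 0.05, with 0.0% of all genes past the adjusted threshold. At that unadjusted p, 219 of all genes were lower and 134 higher. Rpl27a (-0.74), Rps27 (-0.68) and Rps26 (-0.52) were lowest, and Rpl12 (0.30), Rps25 (0.02) and Rps6 (-0.02), the small subunit protein that S6 kinase phosphorylates, were highest. With quantile normalization the median was -0.01, and it was -0.19 without G0 CMP pool 1 and -0.54 without G0 CMP pool 2.

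In G0, ribosomal protein signals of most members were slightly lower in GMP than in CMP. The median log2 difference (GMP minus CMP) was -0.12, with 37 of 43 members below 0, and it was 0.05, with 27 members above 0, without G0 CMP pool 2. By limma 1 member fell (Rpl27a) and 0 rose, against 10.2% and 10.6% of all genes. At an unadjusted p under 0.05, 1 member was higher and 1 lower, beside 1614 and 1629 of all genes. With the paired pools as a block within each progenitor, 4 members fell (Rpl27a, Rps14, Rps29 and Rps7) and 1 rose (Rps27l), against 13.6% and 13.0% of all genes. That block pairs G0 with G4/G5 pools, not CMP with GMP, so it takes spread between pools out of the error of this comparison. Its counts therefore carry no extra weight. The groups did not overlap downward for 6 members (14.0%), against 33.1% of all genes, and upward for 3 (6.98%), against 32.2%. Rpl27a, a large subunit protein, read 277.1 and 321.6 in CMP against 178.6 and 158.1 in GMP (log2 change -0.79 ± 0.21; limma adjusted p = 0.0331). The next lowest were Rps6 (-0.32) and Rps24 (-0.30). The highest were Rps27l (0.36 ± 0.14), Rps4l (0.26) and Rpl14 (0.25), none past the threshold without the block.

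In G4/G5, ribosomal protein signals were lower in GMP than in CMP. The change was below 0 for 39 of 43 members, with a median of -0.50 and a range of -1.53 to 0.26, against a median of -0.04 over all genes. By limma 13 members (30.2%) fell and 0 rose, against 6.29% and 4.18% of all genes. At an unadjusted p under 0.05, 33 members were lower and 0 higher, beside 1435 and 1179 of all 8886 genes. With the paired pools as a block within each progenitor, 34 members fell and 0 rose, against 9.78% and 6.71% of all genes, and with a block shared by both progenitors 20 fell. The block within each progenitor does not pair CMP with GMP and removes spread between pools that this comparison still carries. The standard error of Rpl38, for example, went from 0.18 to 0.072, so the higher count carries no extra weight. The groups did not overlap downward for 37 members (86.0%), against 33.0% of all genes tested, and upward for 2 members (4.65%), against 27.7%. In the same comparison all 18 hybridisation controls were lower on both GMP arrays, with a median log2 difference of -1.31, and their part in the result was not tested. In G0 that difference was -0.63. The 33 members with a mean signal of 4000 or more had a median change of -0.52 in G4/G5, with 0 above 0. The 78 other genes at 4000 or more, which were dimmer as a set, had a median of -0.07, with 34 above 0. In G0 these medians were -0.13 for the members and 0.16 for the other genes. With quantile normalization 1 member (Rpl27a) fell and the family's median was -0.01. The count of members that fell was 0 without either G4/G5 GMP pool, 1 when G4/G5 CMP pool 2 or either G0 GMP pool was left out, 24 when G4/G5 CMP pool 1 was, and 30 when either G0 CMP pool was.

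The member with the lowest adjusted p was Rpl27a, which read 306.0 and 478.4 in CMP against 129.7 and 121.6 in GMP (log2 change -1.53 ± 0.21; limma adjusted p = 0.00573). Both CMP values were more than 2 times the GMP values. Its other probe set was near 0, with a mean of 4.12, and adds no second reading. Rpl7, a large subunit protein, read 10505 and 10995 in CMP against 7690 and 7551 in GMP (log2 change -0.50 ± 0.11; limma adjusted p = 0.0306).
Rpl37a, a zinc-binding protein of the large subunit, had a log2 change of -0.73 ± 0.17. Its second bright probe set gave -0.61, but its dim one (mean signal 322.8) went the other way, at 0.71. Rpl13a, known in human cells for an extra-ribosomal role in silencing inflammatory mRNAs, had a change of -0.58 ± 0.14, and Rpl35, a protein near the exit tunnel, of -0.54 ± 0.13. Among the anaemia genes, Rps19 read 9994 and 11427 in CMP against 7354 and 7324 in GMP (-0.54 ± 0.13), Rps7 changed by -0.59 ± 0.14 and Rps14 by -0.69 ± 0.17. In all of these the CMP and GMP pools of G4/G5 did not overlap.
Rpl11 also fell (-0.46), as did Rps15, Rps29, Rps3 and Rpl10a, whose changes ran from -0.64 to -0.40 and which are named beyond the rule because they complete the count. The dim probe set of Rps3 gave 0.20. Rps28 had a change of -0.70 that did not pass (limma adjusted p = 0.0572). The highest changes were those of Rpl12 (0.26), Rps25 (0.16) and Rps4l (0.05), none past the threshold.

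**Figure D3:**
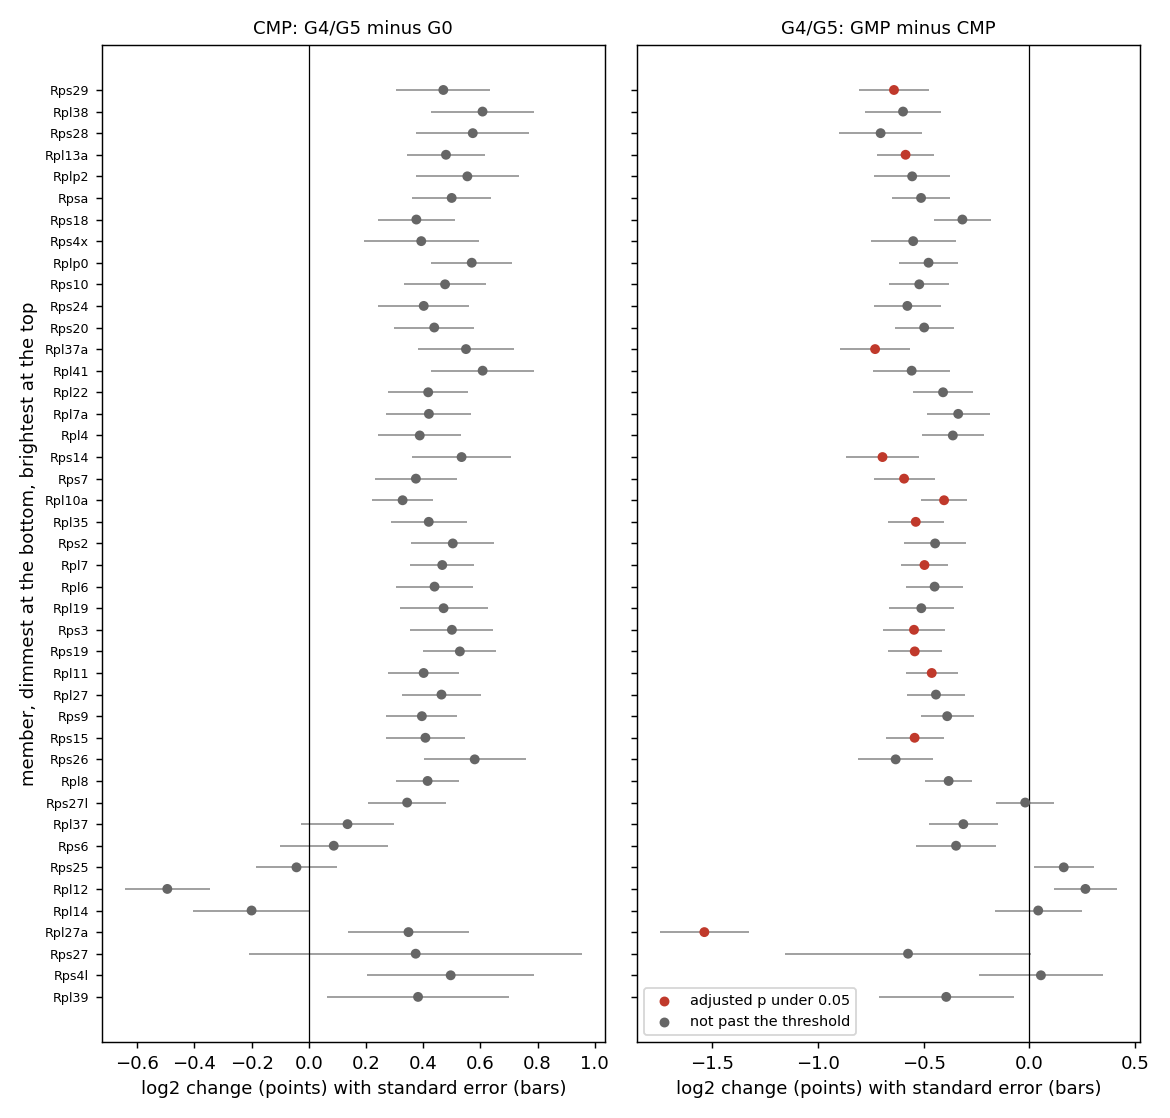
Log2 change (points) with its standard error (bars) of each tested member, ordered by mean signal, for G4/G5 minus G0 in CMP (left) and GMP minus CMP in G4/G5 (right), with members past the adjusted p threshold in red. The bright members cluster between 0.33 and 0.61 on the left and between -0.73 and -0.32 on the right, and Rpl27a lies apart on the right at -1.53.

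Centring each array on the median of the members asks which of them departed from the rest. In the genotype comparisons 0 members passed by limma on this scale, and at an unadjusted p under 0.05 there were 3 lower in CMP, 1 lower in GMP and 0 higher in either. Of all genes on this scale, 35.0% were lower and 0.754% higher in CMP at that p, and 3.31% and 1.98% in GMP. Past the adjusted threshold were 0.124% of all genes in CMP and 0.0% in GMP. For GMP against CMP in G0, 0 members passed, against 6.68% of all genes that rose and 4.18% that fell, with 1 member higher and 1 lower at an unadjusted p under 0.05. For GMP against CMP in G4/G5, 3 members rose relative to the family and 1 fell, against 28.9% and 2.18% of all genes, whose level shifts with the centring. Rps27l, a paralog of Rps27 that p53 induces in human cells, read 3083 and 3408 in CMP and 4697 and 3677 in GMP of the G0 mice. In G4/G5 mice it read 4105 and 4127 in CMP and 4268 and 3862 in GMP, so the CMP and GMP pools overlapped there. Relative to the family it was higher in GMP by 0.48 ± 0.16 in both genotypes (limma adjusted p = 0.0754 in G0 and 0.0437 in G4/G5). As deposited its change in G4/G5 was -0.02, while the 33 bright members had a median of -0.52. With quantile normalization its change was also -0.02, beside a median of -0.0078 for those members. The difference from the bright members in G4/G5 was therefore present as deposited and absent with quantile normalization. All 3 of its probe sets gave a GMP minus CMP change above 0 in G0, between 0.22 and 0.36.
Rpl12 rose relative to the family by 0.76 ± 0.23 (limma adjusted p = 0.0327) and Rps25 by 0.66 ± 0.21 (0.0378). Both have a single, dim probe set, which read 210.5 and 244.3 for Rpl12 in G4/G5 CMP and 280.8 and 268.3 in G4/G5 GMP. Rpl27a fell relative to the family by 1.04 ± 0.21 in G4/G5 (limma adjusted p = 0.00974) and had a change of -0.67 ± 0.21 in G0 (limma adjusted p = 0.0618).

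**Figure D4:**
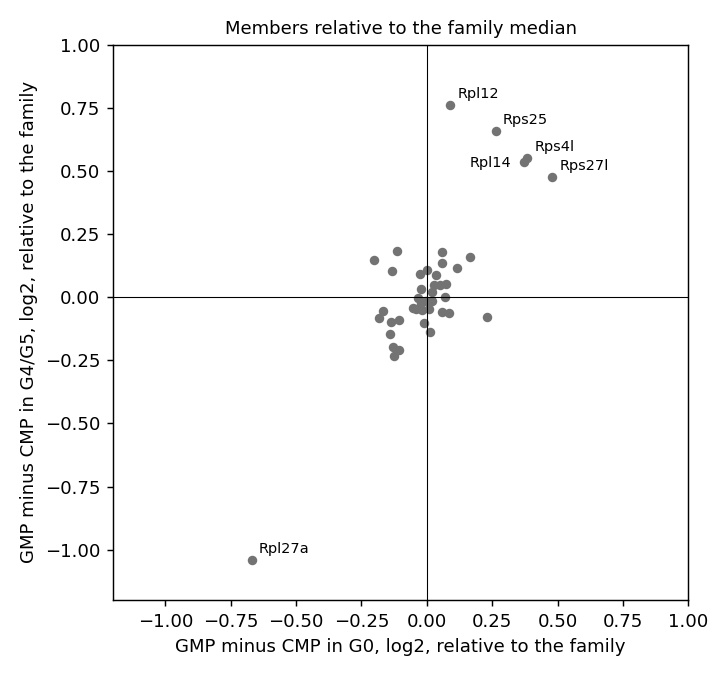
Log2 change of GMP minus CMP for each tested member after every array was centred on the median of the members, with G0 on the horizontal and G4/G5 on the vertical axis. Most members lie near 0 on both axes, Rpl27a lies lowest on both (-0.67 and -1.04), and the members past the threshold on the vertical axis are Rpl12, Rps25, Rps27l and Rpl27a.

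The genes that build, supply or control the ribosome were counted from lists in the same comparisons. Of the 40 tested ribosome biogenesis genes (of 41 listed), 30 had a change below 0 in CMP (median -0.24) and 35 in GMP (median -0.25), with 0 past the limma threshold in either and, at an unadjusted p under 0.05, 6 and 7 lower and 0 higher. At that p, 775 of all genes were higher and 419 lower in CMP, and 409 and 290 in GMP. Utp20, a component of the small subunit processome, had the lowest change in CMP (-0.65) and Nle1 the highest (0.43).
In GMP against CMP, 9 of the 40 rose in G0 and 2 in G4/G5, and 0 fell, beside 10.6% and 4.18% of all genes that rose. With the paired pools as a block 5 rose in G4/G5. In G0 these included Pno1 (0.94), Bysl (0.90), Nolc1 (0.83), Lyar (0.80), Nhp2 (0.79), Pes1 (0.59), Fbl (0.55), Wdr12 (0.49, but -0.02 with the mean of all its probe sets) and Utp14a (0.45), and in G4/G5 Nolc1 (1.01) and Pes1 (0.55). Nolc1, a nucleolar chaperone, read 654.1 and 505.3 in G0 CMP and 1158 and 920.6 in G0 GMP, with no overlap. Of the 14 genes of RNA polymerase I and its factors, which make the precursor of rRNA, Polr1d rose in both genotypes (0.63 in each) and none fell, while with the block 3 rose in G4/G5.

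Mitochondrial ribosomal proteins, which form a separate ribosome inside mitochondria, had medians above 0 in GMP against CMP, where the cytosolic family had medians below 0. Of 76 tested, 51 rose and 0 fell in GMP against CMP in G0 (median 0.62), and 10 rose and 0 fell in G4/G5 (median 0.34). Among all genes, 10.6% rose and 10.2% fell in G0, and 4.18% and 6.29% in G4/G5. Mrpl37 had a change of 1.14 in G0 and Mrpl19 of 1.12 in G4/G5, while Mrpl52 had the lowest (-0.47 and -0.65, not past the threshold). In the genotype comparisons 0 passed by limma, with medians of 0.15 in CMP and -0.12 in GMP and 7 higher in CMP and 1 lower in GMP at an unadjusted p under 0.05. At that p, 775 of all genes were higher in CMP and 290 lower in GMP.

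Of 32 tested translation factors (of 38 listed), 8 rose and 1 fell in GMP against CMP in G0, beside 10.6% and 10.2% of all genes. Those that rose were Eif6 (0.95), which keeps 60S subunits from joining 40S subunits early, Eif4a1 (0.72), Eef1d (0.56), Eif3b (0.53), Eif4e (0.51), the cap-binding protein, Btf3 (0.44), Eif3c (0.42) and Eif1ax (0.42). The change of Btf3 was -0.21 without _s_at and _x_at probe sets, and that of Eif1ax was -0.16 with the mean of all its probe sets. Eif4a2 fell by 0.55 in G0 and by 0.68 in G4/G5. In G4/G5, Eif3b (0.53) and Eif3c (0.51) rose and Eef1b2, one of the bright genes, fell by 0.50, and with the paired pools as a block 4 factors rose and 6 fell there and 0 fell in G0. In CMP the genotype comparison had a median of 0.09 for these factors, with 0 past the threshold and 11 higher and 1 lower at an unadjusted p under 0.05. The highest was Tpt1 (0.62), a bright gene with a TOP mRNA.

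Of 18 tested genes of mTOR and TOP mRNA control (of 21 listed), 1 rose and 4 fell in GMP against CMP in G0, and 0 rose and 4 fell in G4/G5. Of all genes, 10.6% rose and 10.2% fell in G0 and 4.18% and 6.29% in G4/G5. Max, the partner of Myc, rose in G0 (0.78). Mycn fell by 2.75 in G0 and by 3.31 in G4/G5, Rictor, a subunit of mTORC2, by 0.97 and 0.96, and Sesn1, a p53 target that inhibits mTORC1, by 0.99 and 1.06. Deptor fell by 0.88 in G0 and Tsc1 by 0.94 in G4/G5. In the genotype comparisons none passed by limma, with 1 higher and 2 lower at an unadjusted p under 0.05 in each progenitor, Mycn lowest in CMP (-0.59) and in GMP (-1.15), and Ddit4 highest in both (1.26 and 0.88).

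Of the 5 tested genes of p53 and its regulators (of 7 listed), all had a change above 0 in CMP (median 0.36) and 4 in GMP (median 0.40), with 0 past the limma threshold and 3 and 2 higher at an unadjusted p under 0.05. Zmat3, a p53 target, read 42.3 and 40.8 for G0 CMP pools against 120.5 and 75.8 for G4/G5 CMP pools (log2 change 1.04 ± 0.27; limma adjusted p = 0.251) and had a change of 1.05 in GMP. Mdm2, to which Rpl11 binds, had the lowest change in both, 0.10 in CMP and -0.25 in GMP.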

How the data were processed

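The authors deposited 1 linear intensity per probe set and array, a MAS5 signal per the submitters' processing notes, with a scaling target of 100 per the series text. The background settings are not given in those sources. Probe sets with 1 gene symbol in the platform annotation (34945 of 45101; 932 had several, 9160 none) were used, and the 64 control probe sets were left out of all tests and are given as values only.

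The log2(signal + 10) of these deposited values was analysed, which understates changes of dim genes. The 6 comparisons were fitted with limma 3.58.1 in R 4.3.3 over all 8 arrays, with 1 mean per group, 4 residual degrees of freedom, an intensity trend and Benjamini-Hochberg adjustment over 8886 genes (threshold 0.05). The pools are paired by number within a progenitor in the series text, and the deviations of paired pools from their group means correlated at 0.25 in CMP and 0.14 in GMP. The fit without the pairs is reported first, and the fit with them as a block beside it where it changed the calls. For GMP against CMP that block removes spread between pools without pairing the pools compared. Its counts there are not better supported than those without it. The script was tested on simulated data. Precision is limited by the number of arrays, and a two-sided exact permutation test of 2 against 2 pools cannot go below p = 0.333. Tables and figures used Python 3.11.15, pandas 2.3.3 and matplotlib 3.10.9.

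The members, gene lists and tests were chosen with earlier results of these data known, so no p-value was computed for the family as a whole. Genes named were a fixed set by role, the 3 highest and 3 lowest members of each comparison, up to 8 members past the threshold per direction, and the genes of each list that passed, or its extremes. Of the mitochondrial list only extremes are named. Alternatives were quantile normalization, centring on all genes or on the members, other pseudocounts and filters, other probe set choices, replicate blocks, no intensity trend, the 4 compared arrays alone, and leaving out each array.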

Additional observations from a re-analysis of the deposited data

Results flagged for a closer look

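The hybridisation control probe sets, which detect RNA that does not come from the mice and enter no comparison, were higher in G4/G5 than in G0 CMP, with a median log2 difference of 0.83 over 18 probe sets. Probe sets that list a ribosomal protein gene among several symbols, which the members did not use, had a median log2 difference of 0.47 between G4/G5 and G0 in CMP over 100 probe sets. Groups of 2 arrays are too small to test a single array for standing apart, and no member had its groups fully separated in opposite directions in the 2 progenitors or in the 2 genotypes.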

How the results depend on the processing

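The family's median kept its direction in CMP, in the mean of both progenitors, in the interaction and in G4/G5 GMP against CMP under other pseudocounts, filters, probe set choices and blocks, and with each array left out in turn. Quantile normalization brought it to 0.0050, -0.0037, -0.011 and -0.011, and centring on the members, which fixes it near 0 and sets the median of all genes to -0.41 in CMP, to -0.036, -0.0064, -0.0011 and -0.0017. With 1 array left out it ran from 0.28 to 0.58 in CMP, from -0.54 to -0.19 in the interaction and from -0.30 to 0.045 in G0 GMP against CMP.

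Members past the threshold in G4/G5 GMP against CMP were 13, and 1 with quantile normalization, no signal filter or no intensity trend, 4 centred on the members, 5 with the mean of all probe sets and 7 with the 4 arrays alone. With 1 array left out they ran from 0 to 30, and a group left with 1 array was assumed to vary like the others. In G0, 1 member passed, and 0 did centred on the members, with no signal filter or with the mean of all probe sets, 2 without _s_at and _x_at probe sets, and 0 to 7 with 1 array left out. In CMP these counts ran from 0 to 9 and for the mean from 0 to 7. The causes were not tested.

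With a replicate block within each progenitor, 34 members passed in G4/G5 and 5 in G0, and with a shared replicate block 20 and 1. The block within each progenitor does not pair CMP with GMP pools and lowers their errors, so its higher counts carry no extra weight. The blocks changed no count of members in the other 4 comparisons. The same-numbered pools of CMP and GMP, which the series text does not pair, correlated at 0.22 in G0 and 0.03 in G4/G5.

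Signs reversed for 23 of 89 named changes. In CMP, quantile normalization gave -0.037 for Rpl11, -0.070 for Rpl22, -0.020 for Rps10, -0.086 for Rps24, -0.12 for Rps4x, -0.10 for Rps7 and -0.013 for Rpsa. Centred on the members, the values were -0.054 for Rpl11, -0.038 for Rpl22, -0.054 for Rps24, -0.11 for Rps27l, -0.063 for Rps4x and -0.081 for Rps7, and 0.35 for Rps6 in the interaction. Without _s_at and _x_at probe sets they were -0.60 for Rpl41 and -0.38 for Rps24 in CMP and -0.21 for Btf3 in G0. The mean of all probe sets gave -0.16 for Eif1ax and -0.017 for Wdr12 in G0. With 1 array left out, the ranges that crossed 0 were -0.51 to 0.10 for Rpl14 and -0.14 to 0.056 for Rps25 in CMP, -0.24 to 0.73 for Rpl39, -0.78 to 0.16 for Rps27 and -0.14 to 0.72 for Rps4l in GMP, and -0.084 to 0.018 for Rps25 in the mean. In the interaction they were -0.081 to 0.12 for Rps25, -1.62 to 0.26 for Rps27 and -0.24 to 0.19 for Rps6, and in GMP against CMP they were -0.057 to 0.55 for Rpl14 in G0 and -0.38 to 0.49 for Rps4l in G4/G5.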
